A study of Mus musculus and Acomys cahirinus with 16 samples.

Results

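The genes of polyamine metabolism were followed in skin of 2 rodents, the laboratory mouse (Mus musculus) and a spiny mouse from Africa (Acomys cahirinus), with and without DMBA/TPA treatment. The set was 10 genes taken by symbol: Odc1, Amd1, Srm, Sms, Sat1, Smox, Azin1, Azin2, Oaz1 and Oaz2. They were 10 of the 56980 genes in the mouse table and 10 of the 19818 genes in the spiny mouse table. All 10 passed the filter on low counts in mouse, and 9 passed it in spiny mouse. Amd1 had 0 reads in every spiny mouse sample, where its gene model overlaps that of Amd2.

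The study holds 16 samples of polyadenylated RNA in 4 groups of 4, which are untreated mouse skin, DMBA/TPA-treated mouse skin, untreated spiny mouse skin and DMBA/TPA-treated spiny mouse skin. DMBA starts skin tumours by damaging DNA, and TPA, a phorbol ester, activates protein kinase C and drives growth of the damaged cells. Strain, sex, age, dose, schedule, body site and time since the last application are not given in the sources used here, nor whether a treated sample is a tumour or the skin around it. The labels do not say that the samples of a group came from separate animals, so p-values measure the spread between these samples. The design text of the series speaks of irradiated fibroblasts. The sample labels and the title speak of skin, and keratinocyte markers (Krt5, Krt14 and 5 others) were above 0 in all 16 samples, with a summed level of at least 8773 CPM.

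Polyamines are small positively charged molecules that bind RNA and DNA and are needed for growth. Ornithine decarboxylase, made from Odc1, forms putrescine from ornithine, and putrescine is then lengthened to spermidine and spermine with groups taken from decarboxylated S-adenosylmethionine. Antizymes bind ornithine decarboxylase and send it to the proteasome, antizyme inhibitors hold antizymes away from it, and antizyme protein is made only when ribosomes shift frame, which polyamines favour. In skin, ornithine decarboxylase is a classic marker of exposure to TPA and is also abundant in growing hair follicles.

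Levels are given as CPM, which are read pairs scaled to a common library total, with each library adjusted within its species by TMM factors (the trimmed mean of M values). A fold change is treated over untreated. A gene was called higher or lower at an adjusted p under 0.05 by edgeR's quasi-likelihood test. Mouse libraries held 19608787 to 30198281 counted read pairs and spiny mouse libraries 21143918 to 30561256, so 3 read pairs correspond to 0.102 to 0.158 CPM. Treatment moved a large share of all genes. Of all genes tested 61.2% were called in mouse and 55.1% in spiny mouse, and the treatment effect differed between the species for 46.1%. The median log2 fold change over all genes was -0.15 in mouse and -0.01 in spiny mouse. Other scalings moved the mouse median by between -0.24 and 0.10. The share of mouse calls that were higher was 42.4% with TMM and 48.4% with the size factors of DESeq2. By the upper quartile it was 30.5%, and by library size alone 28.6%. For the species difference those shares were 46.4%, 36.9%, 61.2% and 66.2%, in the same order.

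In mouse, 6 of the 10 polyamine genes rose with treatment (Odc1, Amd1, Srm, Sat1, Smox and Azin2), 2 fell (Sms and Oaz2), and 2 were not called (Azin1 and Oaz1). Over all genes tested in mouse, 25.9% were called higher and 35.3% lower. The same 6 were higher, and the same 2 lower, in every treated than in every untreated sample, as were 26.6% and 32% of all genes (58.6% in either direction). The median log2 fold change of the 10 genes was 0.57. In spiny mouse none of the 9 tested genes rose, 3 fell (Odc1, Azin2 and Oaz2) and 6 were not called, against 28.2% of all genes called higher and 26.9% called lower. At an unadjusted p under 0.05 by the same edgeR test none of the 9 rose either, and by the adjusted p of DESeq2 1 did (Smox). Only Oaz2 was lower, and none was higher, in every treated than in every untreated spiny mouse sample, against 24.1% and 26.7% of all genes (50.9% in either direction). The median of the 9 was -0.06. The treatment effect itself was lower in spiny mouse than in mouse for 5 of the 9 genes (Odc1, Srm, Sat1, Smox and Azin2), higher for 1 (Sms) and not called for 3, where 24.7% of all genes were lower and 21.4% higher. The median difference was -0.70 over the 9 genes and -0.03 over all genes.

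**Figure D1:**
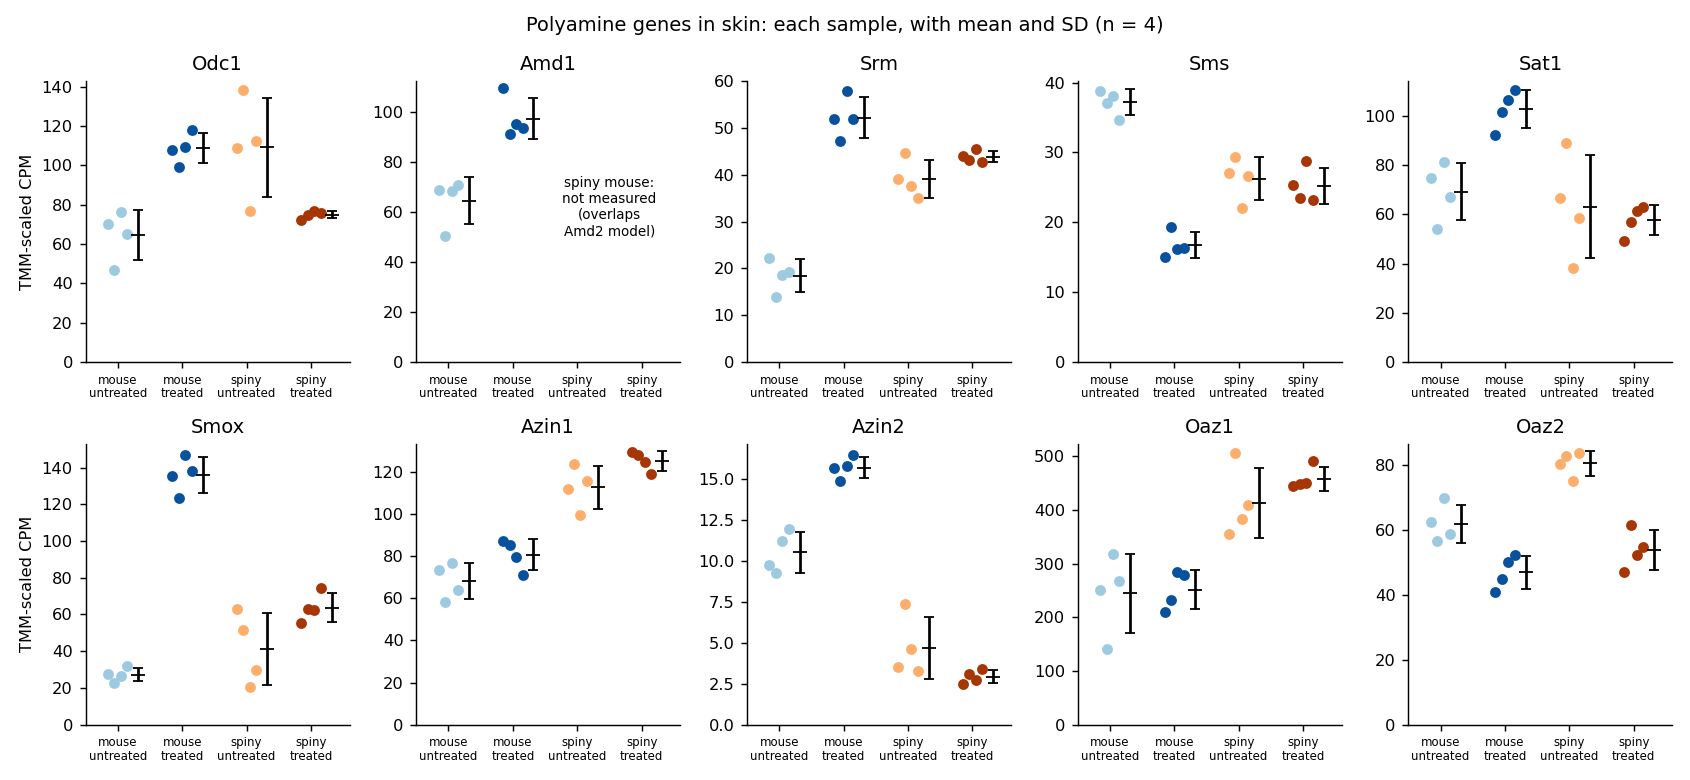
Level of each polyamine gene in every sample, in TMM-scaled CPM on a linear axis from 0, with 4 points per group and the mean and SD beside them. The treated mouse samples lie wholly above the untreated for Odc1, Amd1, Srm, Sat1, Smox and Azin2 and wholly below for Sms and Oaz2, while in spiny mouse only Oaz2 separates. Amd1 is left blank for spiny mouse because its gene model there overlaps that of Amd2.

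The sequence upstream of the start was taken for mouse genes whose RNA moved with treatment, to show what lies in front of Odc1, Amd1 and Sat1, which rose, and Sms, which fell. The promoter windows are those of RefSeq on GRCm38.p6 (250 bases before to 50 after each start), each found exactly at 1 place in GRCm39, and 7 of the 10 genes had an entry. Srm, Azin1 and Azin2 had none. The sequences below stop where the gene begins in the deposited annotation, read 5′ to 3′ on the strand of the gene, and carry in capitals each GC box (GGGCGG, or CCGCCC on the other strand) or E-box (CACGTG).
Odc1, chr12:17594624-17594794 of GRCm39, plus strand: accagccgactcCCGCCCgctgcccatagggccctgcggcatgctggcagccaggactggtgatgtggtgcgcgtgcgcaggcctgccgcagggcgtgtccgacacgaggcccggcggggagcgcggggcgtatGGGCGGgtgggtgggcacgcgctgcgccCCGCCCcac
Amd1, chr10:40178185-40178434, minus strand: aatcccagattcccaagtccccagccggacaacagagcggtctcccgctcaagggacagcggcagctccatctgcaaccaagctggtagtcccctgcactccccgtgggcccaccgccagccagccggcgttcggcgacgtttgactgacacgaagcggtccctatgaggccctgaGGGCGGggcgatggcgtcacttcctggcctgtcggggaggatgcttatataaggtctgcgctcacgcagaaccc
Sat1, chrX:153999446-153999695, minus strand: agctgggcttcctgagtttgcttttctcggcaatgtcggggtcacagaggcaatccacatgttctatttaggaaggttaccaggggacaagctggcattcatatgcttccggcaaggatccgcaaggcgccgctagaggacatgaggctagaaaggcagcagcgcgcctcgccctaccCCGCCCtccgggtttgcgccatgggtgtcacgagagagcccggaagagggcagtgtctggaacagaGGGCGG
Sms, chrX:156275284-156275533, minus strand: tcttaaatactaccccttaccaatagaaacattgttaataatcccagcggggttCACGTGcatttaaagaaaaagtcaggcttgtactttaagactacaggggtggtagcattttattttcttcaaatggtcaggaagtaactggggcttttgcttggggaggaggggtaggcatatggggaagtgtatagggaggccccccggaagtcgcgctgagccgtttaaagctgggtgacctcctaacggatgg

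The GC box is the letters bound by Sp1, and the E-box CACGTG is the letters bound by Myc with Max. The Odc1 window held 4 GC boxes, 3 of which lie in the stretch shown, and 78% of its 300 bases were G or C, where the median of all promoters was 52.7%. The Amd1 window held 1 GC box and the Sat1 window 2. The Smox window held 6, and the Oaz2 window, whose RefSeq start lies 8547 bases inside the deposited gene, held 4. A GC box on either strand was present in 35.7% of the 32851 RefSeq promoters. Sms has 2 RefSeq starts. The window of the outer start, shown above, held the only E-box found in the 8 windows, 196 bases before the start, and the window of the inner start held 4 GC boxes. CACGTG was present in 7.15% of all promoters. The letters TGANTCA of an AP-1 site, found in 7.81% of all promoters, were in none of the 8 windows. The Oaz1 window and the window of the outer Sms start each held a CCAAT box, which 37.4% of all promoters hold. The Oaz1 window also held a TATAAA, found in 13.6% of all promoters. It begins 3 bases before the start and runs across it. These matches describe letters only. Sites farther upstream or more than 50 bases inside a gene, as in its introns, lie outside the windows and were not searched.

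Odc1 (ENSMUSG00000011179, GRCm39 chr12:17594795-17601506, plus strand) makes the enzyme of the first step. In untreated mouse skin Odc1 stood at 70.2, 46.9, 76.1 and 65.3 CPM in replicates 1 to 4. In treated mouse skin it stood at 108.0, 99.3, 109 and 118 CPM. Every treated mouse sample was above every untreated sample, and untreated replicate 2 was the lowest of the 8. The mean rose from 64.6 ± 12.6 to 109 ± 7.64 CPM (SD, n = 4), a log2 fold change of 0.75 ± 0.15 (SE) or 1.68-fold (edgeR adjusted p = 0.00212). Of the genes tested in mouse, 53.9% had a smaller absolute change.

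In spiny mouse Odc1 (AcoCah2 scaffold_1, 123962176 to 123968832) fell. Untreated samples stood at 109, 138, 76.6 and 113 CPM, and treated samples at 72.2, 74.9, 76.7 and 75.9 CPM. The treated samples lay close together, and the untreated samples were spread more widely, with replicate 3 inside the treated range, so the groups overlapped at that sample. The log2 fold change was -0.54 ± 0.15 (SE), or 0.687-fold (edgeR adjusted p = 0.0121). Without untreated replicate 3 it was -0.68 (edgeR adjusted p = 0.000485). The treatment effect on Odc1 differed between the species by -1.29 ± 0.22 on the log2 scale (edgeR interaction, adjusted p = 0.000233). Of the 13656 genes in that comparison, 84.3% had a smaller absolute difference.

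Odc1 is used by growing hair follicles, and growing-follicle RNA differed between the groups. The summed level of 10 anagen follicle markers (Krt25, Krt27, Krt28, Krt71, Krt35, Krt85, Tchh, Msx2, Hoxc13 and Shh) was 19.6, 2522, 47.7 and 18.0 CPM in untreated mouse replicates 1 to 4, and 21717 to 23822 CPM in treated mouse skin. In spiny mouse, whose table names 9 of the 10, it was 10506, 11319, 1120 and 3376 CPM untreated and 230, 198, 3291 and 1293 CPM treated. At least 9 of the markers were above 0 in every mouse sample and all 9 in every spiny mouse sample. In mouse 9 of the 10 markers were called higher, as were 25.9% of all genes tested. In spiny mouse 4 of the 9 were called lower and 5 were not called, where 26.9% of all genes were called lower. By the summed level, treated replicates 1 and 2 were below every untreated sample and treated replicates 3 and 4 were inside the untreated range. The order of samples within groups was not always shared. Untreated mouse replicate 2, with the most follicle RNA of its group, had the least Odc1. The column of this sample alone carries a further suffix in its name, whose meaning is not stated, and without it the Odc1 log2 fold change was 0.71 (edgeR adjusted p = 1.84e-05). In spiny mouse, untreated replicate 3 had both the least follicle RNA and the least Odc1 of its group. Treated spiny mouse replicates 3 and 4 had the most follicle RNA and also the most Odc1 of their group. In treated mouse skin, replicate 4 had the most of both. Across the spiny mouse groups, untreated replicate 4 and treated replicate 3 had nearly the same follicle sum, 3376 and 3291 CPM, and 113 and 76.7 CPM of Odc1. Untreated replicate 3 and treated replicate 4 also had similar follicle sums, 1120 and 1293 CPM, and there Odc1 was similar too, at 76.6 and 75.9 CPM. The part of follicle growth in the Odc1 result was not tested. In bulk skin, fewer cells of a type and less RNA per cell cannot be told apart.

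Dividing-cell markers (Mki67, Top2a and 6 others) moved upward in both species, from 219 to 295 CPM up to 584 to 736 CPM in mouse and from 198 to 252 CPM up to 618 to 848 CPM in spiny mouse. All 8 were called higher in each species. Odc1 thus rose with them in mouse and fell while they rose in spiny mouse. Skeletal muscle markers fell from 10256 to 14518 CPM down to 2525 to 3303 CPM in mouse and from 17456 to 21875 CPM down to 5782 to 11972 CPM in spiny mouse, with all 8 called lower in mouse and all 7 tested called lower in spiny mouse. Summed keratinocyte markers went from 8773 to 15480 CPM up to 20245 to 29007 CPM in mouse and from 14148 to 18282 CPM up to 24034 to 30595 CPM in spiny mouse. Of these 7 markers 3 were called higher (Krt1, Krt5 and Krt14) and 2 lower (Krt15 at -2.05 and Col17a1 at -0.89) in mouse, and 4 higher and 1 lower (Krt15 at -1.64) in spiny mouse. Summed leukocyte markers had medians of 775 CPM untreated and 464 CPM treated in mouse, with 3 of 6 called lower, and of 294 and 449 CPM in spiny mouse, with 2 of 5 called higher. Adipocyte sums had medians of 415 and 141 CPM in mouse and 1057 and 456 CPM in spiny mouse, and fibroblast sums 8068 and 4859 CPM in mouse and 3751 and 1998 CPM in spiny mouse. Of the 4 adipocyte markers 2 were called lower in mouse and 3 in spiny mouse, and of the 5 fibroblast markers 2 were called lower in each species and 1 higher in spiny mouse. For all of these lists, the share of all genes tested that was called higher was 25.9% in mouse and 28.2% in spiny mouse. The share called lower was 35.3% in mouse and 26.9% in spiny mouse. The fibroblast counts are near those shares. Untreated mouse replicate 1 held the most hepatocyte marker RNA, 600.3 CPM over 5 markers, where the other untreated mouse samples held 4.78 to 5.93 CPM, treated mouse samples at most 0.800 CPM and spiny mouse samples 25.1 to 55.3 CPM, and without it the Odc1 log2 fold change was 0.80 and 6 genes rose and 2 fell as before. The part of these changes in tissue makeup in the results was not tested.

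**Figure D2:**
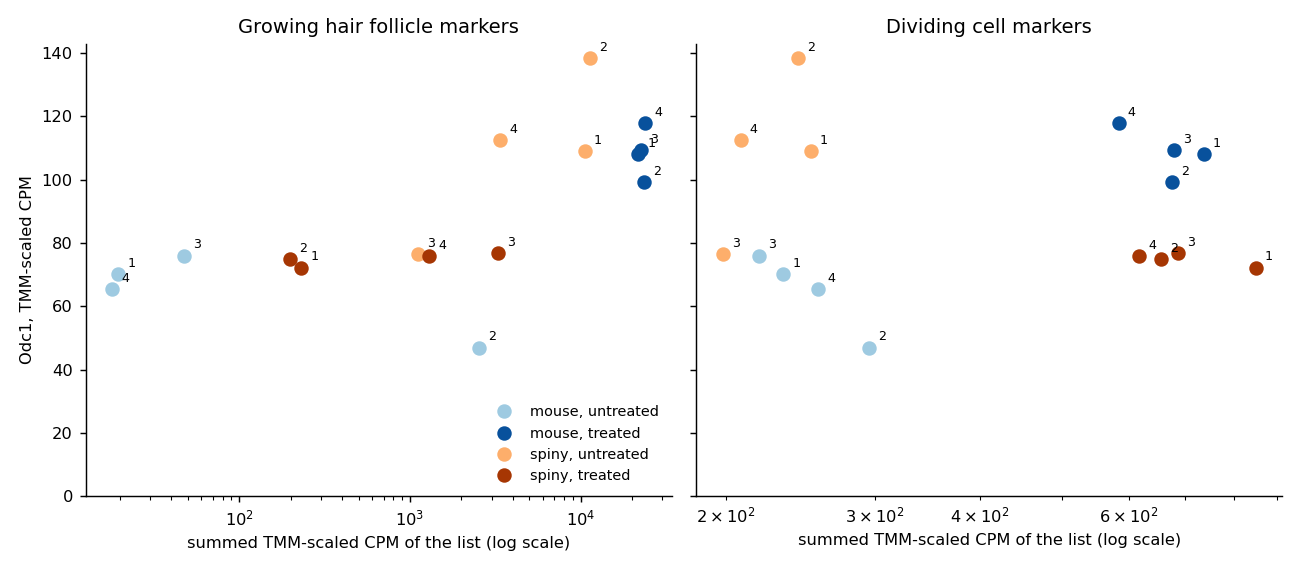
Odc1 in TMM-scaled CPM (linear axis from 0) against the summed TMM-scaled CPM of growing hair follicle markers (left) and dividing cell markers (right), on log axes, with 1 numbered point per sample. Treated mouse samples are at the right of both panels with 99.3 to 118 CPM of Odc1, while treated spiny mouse samples are at the right for dividing cells only and have 72.2 to 76.7 CPM of Odc1.

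Amd1 (ENSMUSG00000075232, GRCm39 chr10:40163454-40178184, minus strand) makes S-adenosylmethionine decarboxylase, the source of the groups added to putrescine. It stood at 68.8, 50.2, 68.4 and 70.6 CPM in untreated mouse skin and at 109, 90.9, 95.0 and 93.7 CPM in treated mouse skin. All treated samples were above all untreated samples. The rise was 0.59 ± 0.13 on the log2 scale (SE), or 1.51-fold (edgeR adjusted p = 0.00332). In spiny mouse Amd1 was not measured. Its model on scaffold_10 shares 3290 of its 3299 exon bases with that of Amd2 on the same strand, and the counting options recorded in the file headers drop a read pair that touches 2 genes. Amd1 and Amd2 both had 0 reads in all 8 spiny mouse samples, so that 0 gives no level for this step. In mouse the retrocopy Amd2 held 4 to 11 reads per sample.

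Srm makes spermidine synthase, which turns putrescine into spermidine, and Sms makes spermine synthase, which turns spermidine into spermine. In mouse these 2 consecutive enzymes moved in opposite directions. Srm (ENSMUSG00000006442, chr4:148675960-148679450) went from 22.3, 13.9, 18.5 and 19.1 CPM to 51.9, 47.3, 57.9 and 52.0 CPM. Sms (ENSMUSG00000071708, chrX:156226851-156275283, minus strand) went from 38.8, 37.1, 38.1 and 34.7 CPM to 15.1, 19.3, 16.2 and 16.4 CPM. Neither gene had any overlap between treated and untreated mouse samples. Srm rose by 1.5 ± 0.15 on the log2 scale (SE), or 2.83-fold (edgeR adjusted p = 4.63e-05), and Sms fell by 1.15 ± 0.10, or to 0.450-fold (edgeR adjusted p = 3.19e-05). Both mouse calls held under all 14 alternative settings (another test, scaling or filter, the replicate block, or a sample left out).

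In spiny mouse neither synthase was called. Srm stood at 39.2, 44.7, 37.5 and 35.0 CPM untreated and at 43.9, 43.2, 45.5 and 42.7 CPM treated. Sms stood at 27.0, 29.3, 22.0 and 26.6 CPM untreated and at 25.4, 23.4, 28.7 and 23.1 CPM treated. Treated and untreated samples overlapped for both genes. The log2 fold changes were 0.16 ± 0.08 for Srm (edgeR adjusted p = 0.116) and -0.06 ± 0.11 for Sms (edgeR adjusted p = 0.654). Srm was called higher without untreated replicate 2, its highest untreated sample, at 0.23 (edgeR adjusted p = 0.0153). The treatment effect differed between the species for both, by -1.34 ± 0.17 for Srm (edgeR interaction, adjusted p = 1.72e-05) and by 1.09 ± 0.15 for Sms (edgeR interaction, adjusted p = 2.97e-05). Skeletal muscle markers fell in the same treated samples of both species, and their part in the Sms result was not tested.

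Per kilobase of exon, the balance of the 2 synthase RNAs can be set side by side. Srm was 1.40 to 2.16 times Sms in untreated mouse samples and 9.22 to 13.4 times Sms in treated mouse samples. In spiny mouse the same ratio was 3.94 to 5.11 untreated and 4.75 to 5.54 treated. The mouse groups were far apart and the spiny mouse groups overlapped. Ratios per length rest on the exon lengths of 2 different annotations, so only the comparison within a species is read here.

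**Figure D3:**
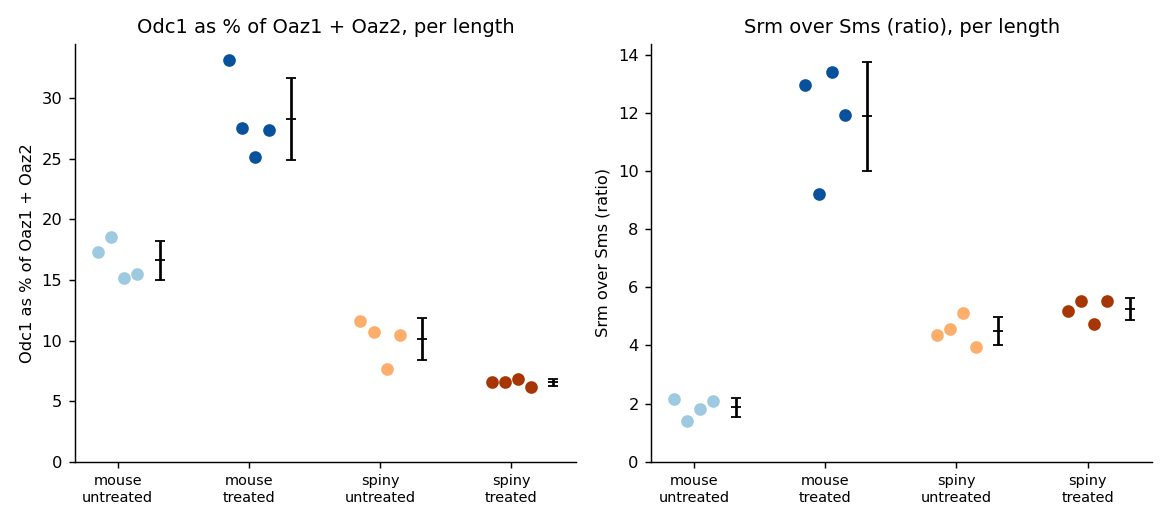
Left, Odc1 RNA as a percent of Oaz1 plus Oaz2 RNA, and right, the ratio of Srm to Sms RNA, both per kilobase of exon on linear axes from 0, with 4 samples per group and the mean and SD beside them. Both quantities are higher in all treated than in all untreated mouse samples, and in spiny mouse the left is lower in all treated samples while the right overlaps.

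Sat1 makes the acetyltransferase that marks spermidine and spermine for export or breakdown. In mouse Sat1 (ENSMUSG00000025283, chrX:153996128-153999445, minus strand) went from 74.7, 54.0, 81.2 and 67.1 CPM to 92.4, 102, 107 and 111 CPM. The groups did not overlap, and the rise was 0.57 ± 0.13 on the log2 scale (SE), or 1.48-fold (edgeR adjusted p = 0.00521). In spiny mouse it stood at 66.6, 89.1, 38.2 and 58.6 CPM untreated and at 49.3, 57.0, 61.2 and 62.9 CPM treated. The treated spiny mouse samples all fell inside the untreated range, and the change of -0.13 ± 0.22 was not called (edgeR adjusted p = 0.628) and was 0.08 without untreated replicate 2. The species difference of -0.70 ± 0.27 passed narrowly (edgeR interaction, adjusted p = 0.0428) and lost its call in 13 of 22 alternative settings, where the adjusted p reached 0.131.

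Smox makes spermine oxidase, which turns spermine back into spermidine and releases hydrogen peroxide, and it moved most of the 10 genes in mouse. Smox (ENSMUSG00000027333, chr2:131333416-131367842, plus strand) stood at 27.5, 22.9, 26.6 and 31.9 CPM in untreated mouse skin and at 136, 123, 147 and 138 CPM in treated mouse skin. The rise was 2.32 ± 0.12 on the log2 scale (SE), or 4.99-fold (edgeR adjusted p = 3.87e-06), and 90.6% of the genes tested in mouse had a smaller absolute change. DMBA/TPA treatment gave no call in spiny mouse, where Smox stood at 63.1, 51.6, 20.7 and 29.5 CPM untreated and at 55.1, 62.8, 62.4 and 74.2 CPM treated. Of the untreated spiny mouse samples, replicates 1 and 2 were near the treated level and replicates 3 and 4 were well below it. The log2 fold change was 0.62 ± 0.30 (edgeR adjusted p = 0.107), it became 0.90 without untreated replicate 1 (edgeR adjusted p = 0.0243), and DESeq2 called it at 0.62 (adjusted p = 0.0477). The species difference was -1.69 ± 0.35 (edgeR interaction, adjusted p = 0.00104). In the spiny mouse annotation 481 of the 6593 exon bases of Smox lie opposite Gm30679, and without a strand option in the counting reads of the 2 could not be told apart there.

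Azin1 and Azin2 make antizyme inhibitors, relatives of ornithine decarboxylase that lack its activity. Azin1 (ENSMUSG00000037458, chr15:38487671-38519510, minus strand) did not pass the test in either species. It ranged from 58.2 to 76.7 CPM in untreated and from 71.1 to 87.2 CPM in treated mouse skin, and from 99.8 to 124 CPM in untreated and 119 to 129 CPM in treated spiny mouse skin. The log2 fold changes were 0.25 ± 0.12 in mouse (edgeR adjusted p = 0.0923) and 0.15 ± 0.07 in spiny mouse (edgeR adjusted p = 0.100), and their difference of -0.09 ± 0.14 (edgeR interaction, adjusted p = 0.604) turned to 0.07 by the upper quartile and 0.13 by library size alone. In mouse, Azin1 passed in 5 of 14 alternative settings. In the mouse annotation 358 of the 6256 exon bases of Azin1 lie opposite Gm49077.

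Azin2 moved in opposite directions in the 2 species, at lower levels. In mouse (ENSMUSG00000028789, chr4:128824026-128856235, minus strand) Azin2 went from 9.73, 9.25, 11.2 and 11.9 CPM to 15.6, 14.9, 15.8 and 16.4 CPM. No treated mouse sample overlapped an untreated sample, and the rise was 0.57 ± 0.12 on the log2 scale (SE), or 1.49-fold (edgeR adjusted p = 0.00272). In spiny mouse it went from 3.50, 7.38, 4.60 and 3.29 CPM to 2.5, 3.07, 2.74 and 3.38 CPM. Treated replicate 4 was above untreated replicate 4, so the spiny mouse groups overlapped. The fall of -0.68 ± 0.26, or 0.624-fold, was at the edge of the threshold (edgeR adjusted p = 0.0499) and was lost in 8 of 14 alternative settings. Without untreated replicate 2, the highest sample, the change was -0.38 (edgeR adjusted p = 0.108). The species difference of -1.26 ± 0.28 (edgeR interaction, adjusted p = 0.00220) kept its call in all 22.

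Oaz1 and Oaz2 make antizymes, the inhibitors of ornithine decarboxylase. Per kilobase of exon, Oaz1 was the most abundant of the 10 genes in all 4 groups, at 95.5 ± 29.0 and 98.2 ± 14.1 CPM per kilobase in untreated and treated mouse skin and at 386 ± 61.0 and 428 ± 20.9 CPM per kilobase in untreated and treated spiny mouse skin. Oaz1 (ENSMUSG00000035242, chr10:80662490-80665124, plus strand) was not called in either species. It ranged from 142 to 318 CPM untreated and from 210.0 to 284 CPM treated in mouse, and from 354 to 505 CPM untreated and 444 to 492 CPM treated in spiny mouse. The mouse change of 0.04 ± 0.23 (edgeR adjusted p = 0.89) was -0.15 by the upper quartile and -0.18 by library size alone. The spiny mouse change was 0.15 ± 0.11 (edgeR adjusted p = 0.276), and it passed without untreated replicate 2 at 0.26 (edgeR adjusted p = 0.0225).

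Oaz2 was the member that fell in both species. In mouse (ENSMUSG00000040652, chr9:65575283-65597582, plus strand) Oaz2 went from 62.4, 56.5, 70.1 and 58.8 CPM to 40.9, 44.9, 50.1 and 52.2 CPM. In spiny mouse it went from 80.4, 83.0, 75.2 and 83.9 CPM to 47.0, 61.7, 52.3 and 54.8 CPM. All treated samples were below all untreated samples in each species. The fall was -0.40 ± 0.11 on the log2 scale (SE), or 0.759-fold, in mouse (edgeR adjusted p = 0.0115) and -0.58 ± 0.09, or 0.669-fold, in spiny mouse (edgeR adjusted p = 0.000473). The mouse call was lost with no filter on low counts (-0.25, edgeR adjusted p = 0.135) and without untreated replicate 3 (adjusted p = 0.0527), treated replicate 1 (adjusted p = 0.0506) or treated replicate 2 (adjusted p = 0.0786), and the spiny mouse call held in all 14 alternative settings. The species difference was not called, at -0.18 ± 0.14 (edgeR interaction, adjusted p = 0.303), and it turned to 0.04 with library size alone.

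Set against its inhibitors, Odc1 RNA per kilobase of exon was 15.1 to 18.5% of Oaz1 plus Oaz2 RNA in untreated mouse samples and 25.2 to 33.1% in treated mouse samples. In spiny mouse it was 7.67 to 11.6% untreated and 6.20 to 6.84% treated. The groups did not overlap in either species, and they moved in opposite directions. Antizyme RNA does not give antizyme protein, which depends on the frameshift. No test was run on these ratios, and exon lengths from 2 annotations limit them to a comparison within a species.

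**Figure D4:**
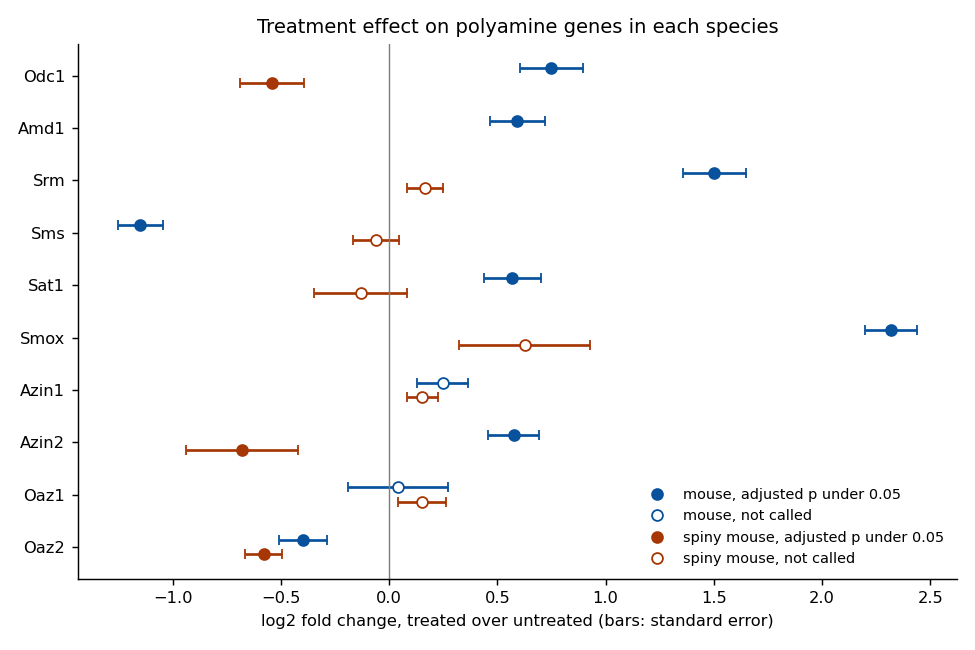
Log2 fold change of treated over untreated for each polyamine gene in mouse and spiny mouse, with standard errors as bars and filled points for an adjusted p under 0.05. Odc1 and Azin2 lie above 0 in mouse and below 0 in spiny mouse, Smox lies farthest from 0 in mouse, at 2.32, and Oaz2 lies below 0 in both.

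The order of levels per kilobase of exon also changed within mouse skin. In untreated mouse samples Sat1 followed Oaz1 at 25.0 ± 4.21 CPM per kilobase, ahead of Oaz2 at 20.7 ± 1.98, Odc1 at 19.0 ± 3.70 and Amd1 at 18.2 ± 2.70, and each neighbour from Sat1 to Amd1 overlapped the next. Smox stood at 6.99 ± 0.955 and Sms at 6.19 ± 0.304, and Azin2 was last at 2.62 ± 0.311. In treated mouse samples Sat1 at 37.1 ± 2.82, Smox at 34.9 ± 2.49, Srm at 32.7 ± 2.70, Odc1 at 31.9 ± 2.24 and Amd1 at 27.4 ± 2.32 CPM per kilobase formed a run of overlapping neighbours, and Sms was last at 2.79 ± 0.300. By group mean Smox moved from the eighth place to the third and Sms from the ninth to the last. In untreated spiny mouse samples Oaz2 at 44.3 ± 2.14, Odc1 at 43.6 ± 10.1, Sat1 at 38.4 ± 12.8 and Srm at 30.5 ± 3.23 CPM per kilobase overlapped their neighbours. In treated spiny mouse samples Sat1 at 35.0 ± 3.68 and Srm at 34.2 ± 0.926 had higher means than Odc1 at 29.9 ± 0.789 and Oaz2 at 29.6 ± 3.35. There Srm and Odc1 did not overlap, Sat1 overlapped the other 3, and Oaz2 reached into the ranges of all 3. All these values are mean ± SD with n = 4. The places of different genes rest on their deposited exon lengths, in mouse 6010 bases for Sms and 4024 for Azin2. By mean CPM, not divided by length, Azin2 (15.7) and not Sms (16.7) was last in treated mouse skin.

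The rest of the pathway was read from a list of 26 genes, of which 24 were tested. In mouse 13 rose, 2 fell and 9 were not called, where 25.9% of all genes were higher and 35.3% lower, with a median log2 fold change of 0.44. In spiny mouse 4 rose, 6 fell and 14 were not called, with a median of -0.09, and the 6 that fell are about the 26.9% of all genes called lower. The 4 that rose compare with 28.2% of all genes. The species difference was lower in spiny mouse for 11, higher for 3 and not called for 10, against 24.7% and 21.4% of all genes. The 2 genes not tested were Agmat, with at most 18 reads in a sample, and Oaz3, with at most 7.

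Ornithine and arginine supply held 5 listed genes. Arginase 1, made from Arg1, splits arginine into ornithine, the substrate of ornithine decarboxylase. In mouse Arg1 stood at 39.9, 18.9, 42.9 and 39.2 CPM untreated and at 130.2, 151, 149 and 137 CPM treated. In spiny mouse it stood at 118, 74.6, 124 and 99.1 CPM untreated and at 35.4, 15.3, 10.6 and 9.46 CPM treated. The groups did not overlap in either species, and Arg1 rose in mouse by 2.01 ± 0.23 on the log2 scale (edgeR adjusted p = 0.000116) and fell in spiny mouse, at -2.56 ± 0.40 (edgeR adjusted p = 0.000708). The species difference was -4.56 ± 0.50 (edgeR interaction, adjusted p = 5.36e-06), the same direction of difference as for Odc1. Of the 5, 3 rose and 1 fell in mouse (25.9% and 35.3% of all genes), and none rose and 2 fell in spiny mouse (28.2% and 26.9%).

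Slc7a1, a carrier that brings arginine into cells, went from 26.3 to 60.5 CPM untreated up to 165 to 184 CPM treated in mouse, a log2 fold change of 2.23 ± 0.26 (edgeR adjusted p = 0.000125). Its spiny mouse groups overlapped, at 72.3 to 151 CPM untreated and 88.2 to 117 CPM treated, with a change of -0.25 ± 0.21 (edgeR adjusted p = 0.338). Arg2, the mitochondrial arginase, rose in mouse by 1.15 ± 0.17 (edgeR adjusted p = 0.000496) and had 0.41 ± 0.18 in spiny mouse (edgeR adjusted p = 0.0801). Slc7a2, another arginine carrier, fell in mouse, at -1.13 ± 0.14 (edgeR adjusted p = 0.000199). Oat, which links ornithine to glutamate and proline, was not called in mouse (-0.01, edgeR adjusted p = 0.93) and fell in spiny mouse, at -0.22 ± 0.07 (edgeR adjusted p = 0.0250), a call lost in 5 of 14 alternative settings, among them without untreated replicate 1 or 2 or treated replicate 1 or 4.

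The making of S-adenosylmethionine and the salvage of the methylthioadenosine that Srm and Sms release held 7 listed genes, of which 3 rose and 1 fell in mouse (25.9% and 35.3% of all genes) and 2 rose and 1 fell in spiny mouse (28.2% and 26.9%). Mtap, the first salvage enzyme, rose in mouse by 1.34 ± 0.11 (edgeR adjusted p = 2.17e-05) and had -0.07 ± 0.07 in spiny mouse (edgeR adjusted p = 0.384), and this difference of -1.41 ± 0.13 passed (edgeR interaction, adjusted p = 9.05e-07). Enoph1, a later salvage enzyme, rose in both species, by 0.72 ± 0.11 in mouse (edgeR adjusted p = 0.000470) and by 0.97 ± 0.08 in spiny mouse (edgeR adjusted p = 2.86e-05). Mat2b, a regulatory subunit of S-adenosylmethionine synthase, fell in both, at -0.72 ± 0.14 (edgeR adjusted p = 0.00227) and -0.35 ± 0.08 (edgeR adjusted p = 0.00404). Mtap, like Srm, was called in mouse and not in spiny mouse, and Enoph1 was called higher in each.

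Spermidine is also the donor of hypusine, a modified lysine that the translation factor eIF5A needs. Eif5a went from 268 to 561 CPM up to 1169 to 1317 CPM in mouse and from 355 to 513 CPM up to 625 to 664 CPM in spiny mouse. It rose in both species, by 1.35 ± 0.24 (edgeR adjusted p = 0.00116) and 0.61 ± 0.12 (edgeR adjusted p = 0.00183). The rise was smaller in spiny mouse, with a species difference of -0.74 ± 0.27 (edgeR interaction, adjusted p = 0.0327). That call was lost in 8 of 22 alternative settings. Of the 2 enzymes that make hypusine, Dohh rose in mouse by 0.97 ± 0.25 (edgeR adjusted p = 0.00850) and had 0.40 ± 0.18 in spiny mouse (edgeR adjusted p = 0.0847), and Dhps was not called in either (0.23, edgeR adjusted p = 0.152, and -0.09, edgeR adjusted p = 0.399). Eif5a2, a relative of Eif5a, went the other way. It was called lower in spiny mouse, at -0.74 ± 0.13 (edgeR adjusted p = 0.00125), and was not called in mouse, at -0.21 ± 0.15 (edgeR adjusted p = 0.243). Its species difference was -0.53 ± 0.20 (edgeR interaction, adjusted p = 0.0402), a call lost in 12 of 22 alternative settings.

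Of the 4 listed genes of polyamine transport, 2 rose in mouse, where 25.9% of all genes were higher, and none was called in spiny mouse, where 55.1% of all genes were called. Atp13a2, a lysosomal polyamine exporter, rose in mouse by 0.80 ± 0.10 (edgeR adjusted p = 0.000142) and had -0.19 ± 0.15 in spiny mouse (edgeR adjusted p = 0.323). Slc3a2, the heavy chain of several amino acid carriers, rose in mouse by 1.42 ± 0.09 (edgeR adjusted p = 9.15e-06) and had 0.01 ± 0.18 in spiny mouse (edgeR adjusted p = 0.955). The species difference passed for both, at -0.99 ± 0.18 (edgeR interaction, adjusted p = 0.000474) and -1.41 ± 0.21 (edgeR interaction, adjusted p = 7.70e-05).

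Odc1 is a textbook target of Myc proteins. Myc rose in both species, by 0.86 ± 0.12 in mouse (edgeR adjusted p = 0.000382) and by 0.45 ± 0.07 in spiny mouse (edgeR adjusted p = 0.000813). The species difference for Myc was -0.41 ± 0.14 (edgeR interaction, adjusted p = 0.0296), a call lost in 6 of 22 alternative settings. Mycn, its relative, stood at 3.30, 13.3, 3.30 and 3.55 CPM in untreated and 29.2, 33.6, 33.8 and 31.3 CPM in treated mouse skin, and at 22.6, 36.8, 5.04 and 16.7 CPM in untreated and 3.46, 1.97, 5.82 and 4.57 CPM in treated spiny mouse skin. In untreated mouse, untreated spiny mouse and treated spiny mouse skin, the sample with the most growing-follicle RNA was also the sample with the most Mycn. In treated mouse skin it was not. There replicate 4 had the most follicle RNA and less Mycn than replicates 2 and 3. Mycn rose in mouse by 2.45 ± 0.45 (edgeR adjusted p = 0.00144), or 3.33 without untreated replicate 2 (edgeR adjusted p = 5.25e-10), and fell in spiny mouse, at -2.36 ± 0.55 (edgeR adjusted p = 0.00550). Its part in the Odc1 result was not tested.

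**Figure D5:**
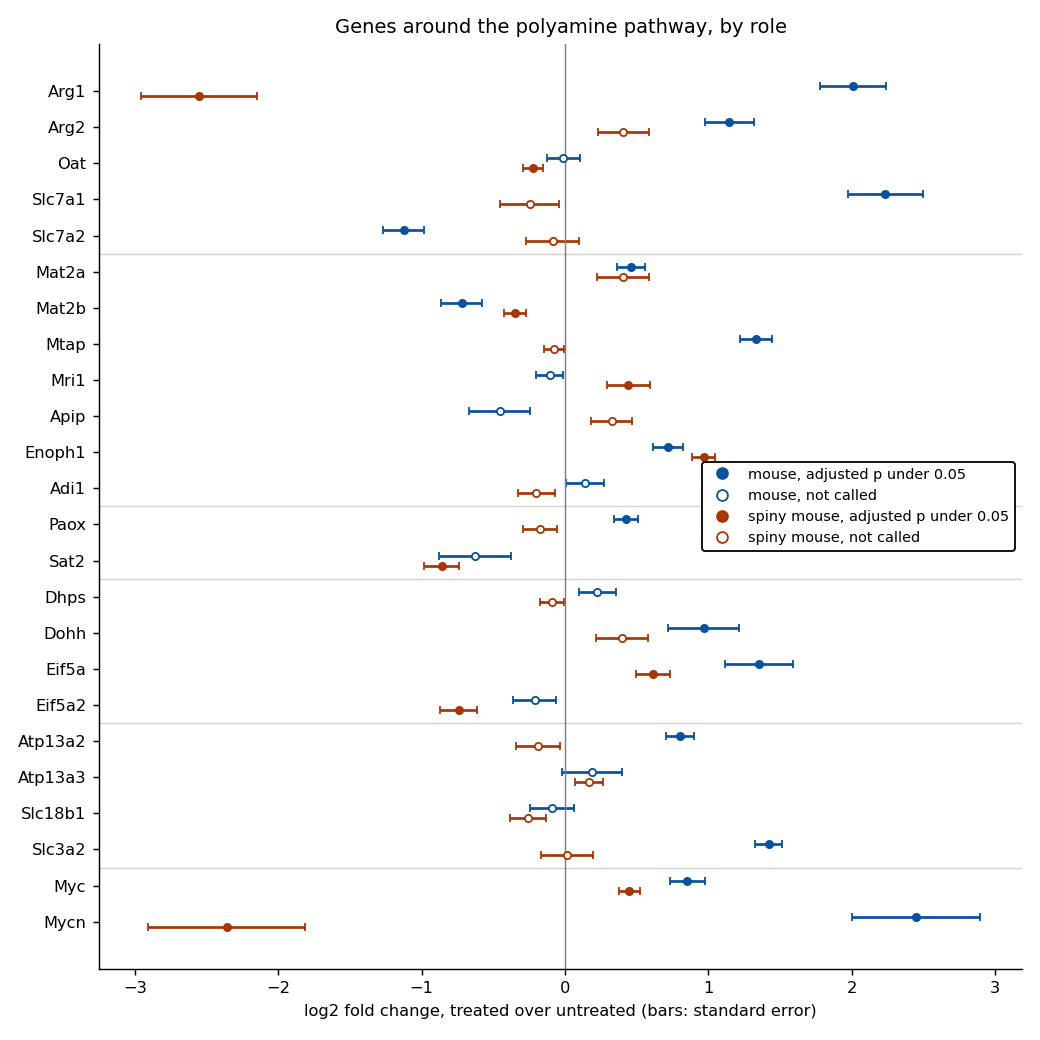
Log2 fold change of treated over untreated for 24 genes around the polyamine pathway, by role from top to bottom (ornithine and arginine supply, methyl cycle and salvage, other polyamine enzymes, hypusine, transport, Myc regulators), with standard errors as bars and filled points for an adjusted p under 0.05. Arg1 and Mycn lie on opposite sides of 0 in the 2 species, at 2.01 and 2.45 in mouse and -2.56 and -2.36 in spiny mouse.

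The genes whose pattern was most like that of Odc1 were ranked by the smaller of 2 Pearson correlations of log2 CPM with Odc1, over the 8 samples of each species, among 9775 genes. The points of each correlation share the treatment contrast and the libraries. The 5 highest were Dok4 (0.94 in mouse and 0.95 in spiny mouse), Calhm5 (0.98 and 0.94), Hagh (0.96 and 0.94), Atf5 (0.97 and 0.93) and Mapk8ip1 (0.94 and 0.92). Of the 9775 genes, 959 had both values at 0.5 or more, and with Spearman ranks only Calhm5 of the 5 stayed among the 5 highest. Azin2 and Amd1 did not reach the level needed in both species to be ranked, and among the other polyamine genes Sat1 was closest, at 0.98 in mouse and 0.70 in spiny mouse. Srm and Smox followed Odc1 in mouse (0.95 and 0.92) and not in spiny mouse (-0.25 and -0.11). The growing-follicle markers that were ranked had 0.578 (Krt35) to 0.723 (Hoxc13) in mouse. In spiny mouse they had 0.775 (Tchh) to 0.893 (Msx2). Dividing-cell markers had 0.68 (Mki67) to 0.934 (Ccnb1) in mouse and -0.746 (Mki67) to -0.614 (Aurkb) in spiny mouse.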

How the data were processed

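Polyadenylated RNA of 16 skin samples was sequenced. The authors deposited raw counts of read pairs per gene and the gene lengths in bases, made with featureCounts 2.0.3 per the file headers, on GRCm39 with the Ensembl 108 annotation for mouse and on AcoCah2 for spiny mouse. Trim Galore and HISAT2 are named in the submitters' processing notes. Read pairs on several genes or places were not counted under the header options, and no strand option was set although the libraries are stranded. Mouse symbols came from GENCODE by gene identifier for 56236 of 56980 genes. Untreated columns carry another code than the library names of the labels and were matched by species letter and replicate number. A check for a library deposited more than once found no pair within a group that agreed within sampling noise (chi-square per degree of freedom 11.35 to 165.8 over 24 pairs). It does not show that samples came from separate animals.

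Within each species genes were filtered (filterByExpr), scaled (TMM) and tested with edgeR 4.0.16 in R 4.3.3 (quasi-likelihood, Benjamini-Hochberg over all genes, threshold 0.05). The species difference is the interaction over 13656 symbols found in both tables. Levels per kilobase divide CPM by the deposited length. The procedure was tested on simulated data in which a small share of genes changed, as many up as down. That setting cannot show how the procedure behaves where a large share of genes moves, as here. The pathway and marker lists, the likeness rule (5 genes, mean log2 CPM 3 or more in each species) and the motifs followed written rules, with all 10 polyamine genes named, and the genes and lists were chosen with earlier results of these data known. Alternatives were DESeq2 1.42.0, other scalings, no filter, a replicate block, each sample left out, a log2 fold change of at least 1 and Spearman ranks. The labels state no pairing, and the main tests used none. Same-numbered samples did not deviate together (correlations of -0.008 to 0.023 in mouse and -0.526 to -0.195 in spiny mouse). Different-numbered samples had -0.149 to 0.119 in mouse and -0.525 to 0.528 in spiny mouse. With 4 samples per group and so wide a spread, this cannot exclude pairing. Without molecular identifiers, the floor of 3 read pairs covers counting error only.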

Additional observations from a re-analysis of the deposited data

Results flagged for a closer look

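Of 38 groups of 4 samples, 2 held a sample far from the other 3, where chance alone sets 1 in 20 groups apart. Amd1 was 50.2 CPM in untreated mouse replicate 2, below the 68.4 to 70.6 CPM of the others. Oaz1 was 492 CPM in treated spiny mouse replicate 4, above the 444 to 449.5 CPM of the others.

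The treatment effect differed between the species for 6 genes by the edgeR interaction test (spiny mouse minus mouse, log2 scale). Odc1 differed by -1.29, Srm by -1.34, Smox by -1.69 and Azin2 by -1.26, and each kept its call in all 22 alternative settings. Sms differed by 1.09, also in all 22. Sat1 differed by -0.70 and lost its call in 13 of them.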

How the results depend on the processing

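Of the polyamine genes, Odc1 kept its call under each other test, scaling, filter, block and left-out sample, with log2 fold changes of 0.52 to 0.90 in mouse, -0.68 to -0.41 in spiny mouse and -1.44 to -1.07 for the species difference. With a log2 fold change of at least 1 required, 2 genes of the set rose and 1 fell in mouse and 0 fell in spiny mouse, and 6730, 2226 and 2928 genes were called in all for mouse, spiny mouse and the species difference, since fewer genes meet both limits. Without the filter on low counts 1 of the set fell in mouse, and with DESeq2 1 rose in spiny mouse. The cause was not tested. With each sample left out in turn, 6 to 7 rose and 1 to 2 fell in mouse with 11062 to 13944 genes called in all, 0 to 3 rose and 2 to 3 fell in spiny mouse with 7258 to 8132 genes called, and the species difference was higher for 1 and lower for 4 to 5 with 5746 to 7711 genes called. The 3 that rose in spiny mouse without untreated replicate 2 were Srm, Azin1 and Oaz1, and Smox rose without untreated replicate 1.

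Directions turned for small changes that were not called. In mouse Oaz1 was -0.15 by the upper quartile, -0.18 by library size alone, and -0.058 to 0.258 with a sample left out (below 0 without untreated replicate 2 or treated replicate 3). In spiny mouse Sat1 ran from -0.31 to 0.081 with a sample left out (above 0 without untreated replicate 2). For the species difference, upper-quartile scaling gave 0.069 for Azin1 and scaling by library size alone gave 0.127 for Azin1 and 0.038 for Oaz2. That difference for Oaz1 was -0.023 with no filter, and -0.108 to 0.221 with a sample left out (below 0 without untreated mouse replicate 3 or treated mouse replicate 2).

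With the replicate number as a block, 6 of the set rose and 2 fell in mouse, and 11246, 7418 and 5723 genes were called in all for mouse, spiny mouse and the difference. Under this block Odc1 had 0.77 in mouse and -0.51 in spiny mouse. The block ended the calls of Azin2 in spiny mouse (-0.62, edgeR adjusted p = 0.0697), of Sat1 for the species difference (-0.66, edgeR adjusted p = 0.0844), of Oat in spiny mouse (-0.22) and of Eif5a2 (-0.56) and Myc (-0.41) for the difference, and of no other gene examined. Amd1 in spiny mouse had no reads and gives no value in any setting.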
